A study of Mus musculus with 29 samples.

Results

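The cytochrome P450 genes encode haem enzymes that oxidise drugs, pollutants, fatty acids, steroids, bile acids, vitamin D and retinoic acid. Here they were taken as every autosomal window of the deposited gene table that bore a P450 name (Cyp followed by a family number, a subfamily letter and a gene number), without Cyp1a1, Cyp1a2 and Cyp1b1. This gave 511 windows of 126 genes, 31 of them named as pseudogenes, out of 260686 windows in the table. A window was set by the authors at 100 CpG cytosines, counted over both strands (here 49 to 125 CpG pairs in the reference, median 49), and its value (%DNAm) is the mean percent methylation of the window in a library.

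Lung DNA of BALB/c mice was profiled by whole-genome methyl-sequencing (WGMS), an enzymatic method that leaves methylated cytosines readable as C, in 29 libraries from 13-week-old female offspring. Dams were given saline (Sham) or fine airborne particulate matter, PM2.5 (PM), by the nose from before mating until weaning. The adult offspring were sensitised and challenged with ovalbumin (OVA), an egg protein that induces allergic airways disease, or, as the labels have it, received PBS. The labels give 7 libraries each to Sham, PM and Sham-OVA and 8 to PM-OVA, which is the n of every value below unless another is given, and they do not tell litters. A whole piece of lung was homogenised, so a shift in the makeup of cell types and a change of methylation within a cell type cannot be told apart.

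One library stood apart from the label of female mice. Sham replicate 1 had values in 1224 windows of the Y chromosome, against 29 to 46 in the other libraries, and 5.95% of its X windows were under 10 %DNAm, against at most 0.488%. It was kept, and results that turn on it are given without it too.

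P450 enzymes sit in the endoplasmic reticulum or in mitochondria and take electrons from partner proteins such as P450 oxidoreductase or ferredoxin. Families 2 and 3 mainly clear foreign compounds, and in the lung Cyp2f2 and Cyp4b1 are known from the club cells of the airways. Family 4 hydroxylates fatty acids and eicosanoids. Cyp26a1, Cyp26b1 and Cyp26c1 break down retinoic acid, the vitamin A signal that patterns embryos and is used again in lung and immune tissue. Methylation at a CpG-dense start site commonly goes with a silent gene, whereas gene bodies are mostly methylated in any state.

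The largest OVA differences among the P450 windows were in Cyp26c1, on chromosome 19, and its sequence is shown first because it lies in and beside the windows that moved. Values are means of whole windows, so which single CpGs moved was not measured. The stretches below are GRCm38.p6, plus strand, 5′ to 3′, with each CpG in capitals. The first is the coding part of exon 3 that lies in Cyp26c1 window 2 (chr19:37687129-37687394, 25 CpGs in 266 bases), whose window rose by over 20 percentage points. The next is coding sequence of exon 6 in Cyp26c1 window 5 (chr19:37692930-37693229, 33 CpGs in 300 bases), which is as rich in CpG and lay under 5 %DNAm in every group mean. The third is the stretch just upstream of the RefSeq gene start of the neighbour Cyp26a1 (chr19:37697558-37697737, 18 CpGs in 180 bases), in a window under 3 %DNAm in every group mean. The last is exon 7 of Cyp4f17 (chr17:32524002-32524272, 9 CpGs in 271 bases), coding sequence in the P450 window that fell most.
Cyp26c1 exon 3: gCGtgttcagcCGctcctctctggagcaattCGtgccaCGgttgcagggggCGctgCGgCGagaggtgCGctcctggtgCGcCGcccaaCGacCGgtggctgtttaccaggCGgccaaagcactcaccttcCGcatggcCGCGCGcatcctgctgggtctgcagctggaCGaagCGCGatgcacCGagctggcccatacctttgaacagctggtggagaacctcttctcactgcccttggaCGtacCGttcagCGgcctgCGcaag
Cyp26c1 exon 6: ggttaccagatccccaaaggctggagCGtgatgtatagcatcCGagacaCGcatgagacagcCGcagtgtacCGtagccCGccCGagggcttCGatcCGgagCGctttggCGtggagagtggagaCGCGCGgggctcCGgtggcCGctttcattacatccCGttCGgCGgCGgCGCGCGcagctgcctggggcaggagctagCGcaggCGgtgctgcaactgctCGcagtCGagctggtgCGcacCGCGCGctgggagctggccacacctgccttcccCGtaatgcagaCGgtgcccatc
Cyp26a1 upstream: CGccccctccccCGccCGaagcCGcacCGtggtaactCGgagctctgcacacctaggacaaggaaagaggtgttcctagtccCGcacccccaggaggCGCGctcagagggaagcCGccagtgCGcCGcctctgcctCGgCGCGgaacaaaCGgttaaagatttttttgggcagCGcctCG
Cyp4f17 exon 7: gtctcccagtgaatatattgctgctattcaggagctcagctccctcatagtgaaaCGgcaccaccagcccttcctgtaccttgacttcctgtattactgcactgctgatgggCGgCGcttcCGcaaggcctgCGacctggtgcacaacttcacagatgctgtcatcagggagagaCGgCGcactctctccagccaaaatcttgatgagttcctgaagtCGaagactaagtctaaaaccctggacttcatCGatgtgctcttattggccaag

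Retinoic acid receptors are known to bind direct repeats of a 6-base half-site spaced by 5 bases. RefSeq promoters (GRCm38.p6, 250 bases before to 50 after a start) were searched on both strands for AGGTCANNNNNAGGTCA, AGGTCANNNNNAGTTCA, AGTTCANNNNNAGGTCA and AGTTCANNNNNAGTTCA, of which a stretch on 1 strand can match only 1. A match was found in 13 of 32851 promoters (0.0396%). Of the 126 P450 genes, 72 had an entry, with 82 promoters, and a match was found in 1 of those, that of Cyp26a1. It reads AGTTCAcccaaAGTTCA on the minus strand at chr19:37697776-37697792, with the half-sites in capitals, and lies in Cyp26a1 window 1, described below. The match ends 16 bases before the RefSeq start used in the search, and before the GENCODE start (37697798). It lies after the RefSeq gene start that ends the upstream stretch printed above.

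Across all P450 windows, methylation was high and moved by little. In Sham, 466 of the 510 tested windows averaged over 50 %DNAm, 25 lay between 10 and 50, and 19 lay under 10. The mean over P450 windows was 70.1% ± 0.489 (SD) in Sham, 69.4% ± 0.786 in Sham-OVA, 70.4% ± 0.565 in PM and 69.0% ± 0.468 in PM-OVA. Single libraries spanned 69.4 to 70.8% in Sham, 68.3 to 70.4% in Sham-OVA, 69.6 to 71.3% in PM and 68.4 to 69.6% in PM-OVA. Over all autosomal windows with a value in each library, the corresponding means were 69.0% ± 0.366, 68.7% ± 0.597, 69.3% ± 0.463 and 68.4% ± 0.391.

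A differentially methylated region (DMR) was a window with an adjusted p under 0.05 (limma's moderated test, Benjamini-Hochberg adjustment over all 259167 tested windows) whose group means lay 10 or more percentage points apart. After OVA in Sham offspring, 4 P450 windows were DMRs (0.784%, against 0.775% of all tested windows), of which 3 rose (background 0.479%) and 1 fell (background 0.296%). After OVA in PM offspring, 2 were DMRs (0.392%, against 0.584%), with 2 higher (background 0.263%) and 0 lower (background 0.321%). Both were among the 3 that rose in Sham offspring, and windows that were DMRs in both comparisons made up 0.392% of P450 windows and 0.458% of all. The 4 DMRs were windows 1, 2 and 4 of Cyp26c1 and window 5 of Cyp4f17, with windows of a gene numbered by rising genome position. The shares of DMRs are near the background of the table, so the P450 genes as a whole did not stand out by this measure.

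Without the minimum difference, more P450 windows were lower than higher after OVA, and higher windows were a smaller share than in the whole table. In all, 160 windows passed for OVA in Sham (31.4%, against 35.6%) and 247 for OVA in PM (48.4%, against 44.1%). At an unadjusted p under 0.05 there were 212 (41.6%, against 45%) and 293 (57.5%, against 51.4%). For OVA in Sham, 43 windows were higher (8.43%, against 13.3% of all tested windows) and 117 lower (22.9%, against 22.3%). For OVA in PM, 23 were higher (4.51%, against 9.26%) and 224 lower (43.9%, against 34.8%). These comparisons share no library, but the fit drew a common spread for both from all 29 libraries. In both, 100 windows were lower (19.6%, against 19.7%) and 19 were higher (3.73%, against 7.57%). With each library centred on the median of all windows, the split was 53 higher (10.4%, against 18.5% of all tested windows) and 92 lower (18%, against 18.4%) for OVA in Sham, and 55 higher (10.8%, against 21.8%) and 116 lower (22.7%, against 20.4%) for OVA in PM. The median of all tested windows itself fell by 0.414 percentage points for OVA in Sham and by 1.03 for OVA in PM, and the P450 median fell by 1.16 and 1.87. On the log2 ratio scale the median over the 258503 windows with a value in every library fell by 0.0419 and fell by 0.0956. Most of the called differences were small, with 94 of 160 for OVA in Sham and 127 of 247 for OVA in PM under 3 percentage points.

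Cyp26c1 encodes a retinoic acid hydroxylase (ENSMUSG00000062432, plus strand), and 6 windows bore its name. No window of that name held its start site, and the first began 163 bp after it. Window 2 (chr19:37687129-37687832, 704 bp, 266 of them exonic, the rest intronic) carries the exon 3 stretch printed above. It ranged from 14.9 to 27.3 %DNAm in Sham (median 22.3) and from 36.6 to 52.6 in Sham-OVA (median 45.1). It ranged from 20.1 to 31.1 in PM (median 25.7) and from 40.1 to 55.4 in PM-OVA (median 44.2). Every OVA library was thus above every unchallenged library. The means were 22.7% ± 4.30 (SD) and 44.8% ± 6.48, a rise of 22.1 points in Sham offspring (log2 ratio 1.45, SE 0.173, adjusted p 3.92e-07), and 25.1% ± 4.48 and 45.5% ± 5.42, a rise of 20.4 points in PM offspring (log2 ratio 1.30, SE 0.167, adjusted p 7.21e-07).

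Window 1 (chr19:37685744-37687128, 1385 bp, 375 of them exonic), from 163 to 1547 bp after the start, moved the same way from a higher level. It ranged from 43.9 to 49.2 %DNAm in Sham (median 47.0), 50.2 to 67.2 in Sham-OVA (median 62.0), 43.4 to 52.5 in PM (median 48.1) and 57.5 to 69.4 in PM-OVA (median 63.3). The challenged and unchallenged libraries did not overlap within either kind of offspring, although 1 Sham-OVA library at 50.2% lay within the range of PM. The mean rose by 14.5 points in Sham offspring (log2 ratio 0.84, SE 0.120, adjusted p 5.09e-06) and from 47.7% to 63.7% in PM offspring (log2 ratio 0.93, SE 0.116, adjusted p 4.72e-07).

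Window 4 (chr19:37690593-37692653, 2061 bp, 318 of them exonic), over exon 5, ranged from 36.1 to 51.5 %DNAm in Sham (median 42.8) and from 52.2 to 57.3 in Sham-OVA (median 55.9). It ranged from 37.7 to 49.5 in PM (median 43.2) and from 45.8 to 61.4 in PM-OVA (median 51.0), so the PM and PM-OVA libraries overlapped. The rise was 11.7 points in Sham offspring (log2 ratio 0.67, SE 0.119, adjusted p 7.39e-05) and 7.74 points in PM offspring (log2 ratio 0.44, SE 0.115, adjusted p 0.00263), under the minimum of a DMR. The difference between both rises was not past the threshold (interaction −3.99 points, adjusted p 0.771).

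**Figure D1:**
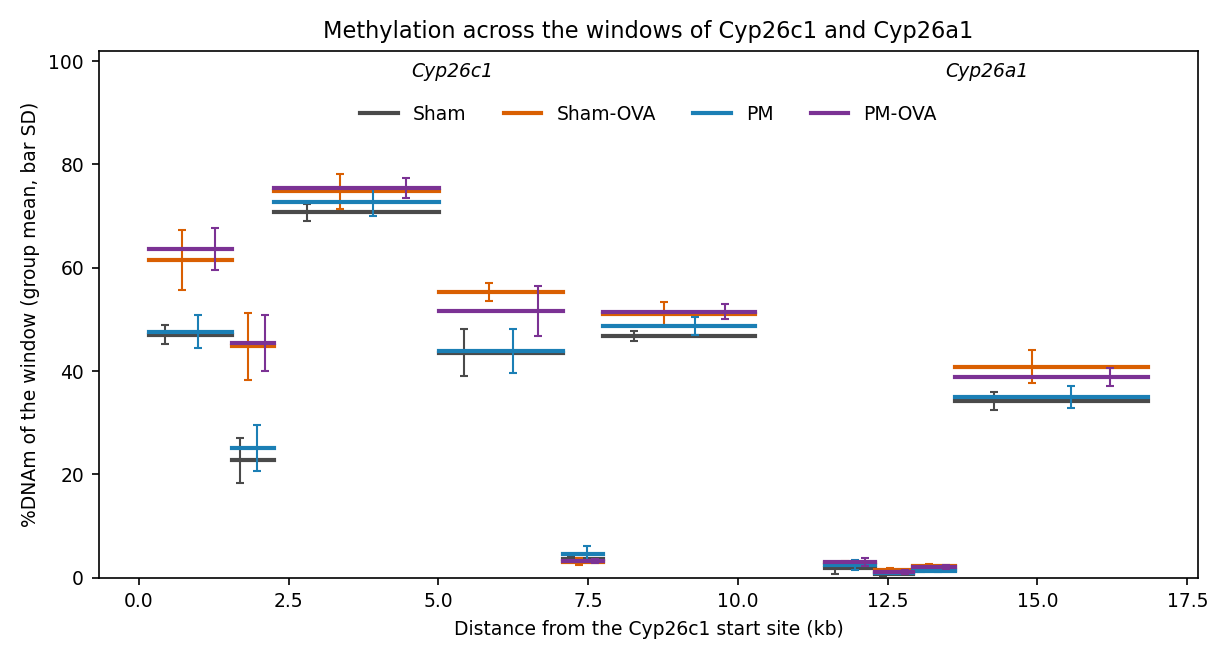
Mean %DNAm (y axis) of each Cyp26c1 and Cyp26a1 window in the 4 groups against distance from the Cyp26c1 start site in kb, where each horizontal line spans a window and vertical bars are SD over 7 or 8 libraries. Window 2 of Cyp26c1 went from 22.7 to 44.8% in Sham offspring and from 25.1 to 45.5% in PM offspring, while window 5 and the first 3 windows of Cyp26a1 lay under 5% in all groups.

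The remaining windows of Cyp26c1 and those of Cyp26a1 are described because they adjoin the DMRs, and were chosen after their values were seen. Window 3 of Cyp26c1, between the DMRs, averaged 70.7% ± 1.61 (SD) in Sham and 74.8% ± 3.37 in Sham-OVA (adjusted p 0.0154), and 72.7% ± 2.80 in PM and 75.4% ± 1.92 in PM-OVA (adjusted p 0.0888, 0.0145 with centred libraries). Window 6, downstream of the coding exons, rose from 46.8% ± 0.936 to 51.0% ± 2.39 (adjusted p 0.000849) and from 48.7% ± 1.68 to 51.5% ± 1.43 (adjusted p 0.0143, 0.0593 without PM-OVA replicates 7 and 8). Window 5 (chr19:37692654-37693332, 679 bp), which holds the exon 6 stretch printed above and has 72.2 CpGs per kb, stayed low. Its library medians were 3.61 %DNAm in Sham, 2.88 in Sham-OVA, 4.58 in PM and 3.34 in PM-OVA, and the highest library, in PM, had 6.34. The means were 3.60% and 3.14% in Sham offspring (adjusted p 0.358), and 4.64% and 3.25% in PM offspring (adjusted p 0.0144, 0.718 with centred libraries). Window 2, with 69.6 CpGs per kb, is thus of like CpG density and stood at a higher level in each group.

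Cyp26a1, the retinoic acid hydroxylase that retinoic acid itself is known to induce, is the next gene downstream of Cyp26c1 on the same strand. Its window 1, which holds the annotated start and the direct repeat given above, ranged from 0.684 to 4.06 %DNAm in Sham and 2.19 to 3.14 in Sham-OVA, and from 1.41 to 4.36 in PM and 2.17 to 4.26 in PM-OVA. The groups overlapped throughout, and the means of 1.91% and 2.89% in Sham offspring differed by an adjusted p of 0.0277 that became 0.0810 without Sham replicate 1 and 0.120 on the percent scale. Window 2, over the first exons, rose from 0.707% to 1.47% in Sham offspring (adjusted p 0.00179) and averaged 1.01% and 1.16% in PM offspring (adjusted p 0.534, 0.000822 with centred libraries). Centring takes as many points off this low window as off any other, which weighs heavily near 0 %DNAm. Window 3 rose from 1.60% to 2.31% (adjusted p 0.0147) and from 1.36% to 2.08% (adjusted p 0.00538), and neither call held on the percent scale (0.0859 and 0.0578). Window 4 (chr19:37699200-37702434), over the last exons, rose from 34.3% ± 1.68 (SD) to 40.9% ± 3.21 in Sham offspring (adjusted p 9.01e-05) and from 35.0% ± 2.12 to 38.9% ± 1.66 in PM offspring (adjusted p 0.00742, 0.0569 with the numbers of the library names as a block). In Sham offspring the lowest OVA library (36.4%) was above the highest unchallenged one (36.3%), and in PM offspring the ranges overlapped.

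Cyp26b1, the family member on chromosome 6 (ENSMUSG00000063415, minus strand), had 13 windows, and 8 neighbouring ones, windows 5 to 12, averaged under 10 %DNAm in Sham. Among the P450 windows under 10%, 12 of 19 belonged to Cyp26 genes. Its window 4, intronic, fell from 66.3% ± 0.947 (SD) to 63.2% ± 2.32 in Sham offspring (adjusted p 0.0266) and from 66.6% ± 1.61 to 62.5% ± 2.70 in PM offspring (adjusted p 0.00213). The window holding its annotated start averaged 70.4% in Sham, 69.1% in Sham-OVA, 71.0% in PM and 69.1% in PM-OVA (adjusted p 0.241 and 0.0617). Over the 3 retinoic acid genes, 10 of 23 windows were higher and 3 lower after OVA in Sham offspring, and 6 were higher and 5 lower in PM offspring. As shares these are 43.5% and 13.0%, against 13.3% and 22.3% of all tested windows, and 26.1% and 21.7%, against 9.26% and 34.8%. Their medians were 0.346 and 0.275 percentage points, against −0.414 and −1.03 for all tested windows. Of the higher windows, Cyp26c1 held 5 in Sham and 4 in PM offspring, Cyp26a1 4 and 2, and Cyp26b1 1 and 0. Of the lower windows, Cyp26b1 held 3 and 4, and Cyp26c1 0 and 1. The windows of these genes were short (median 1146 bp), and higher calls made up 20.1% and 16.7% of all tested windows under 2000 bp.

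**Figure D2:**
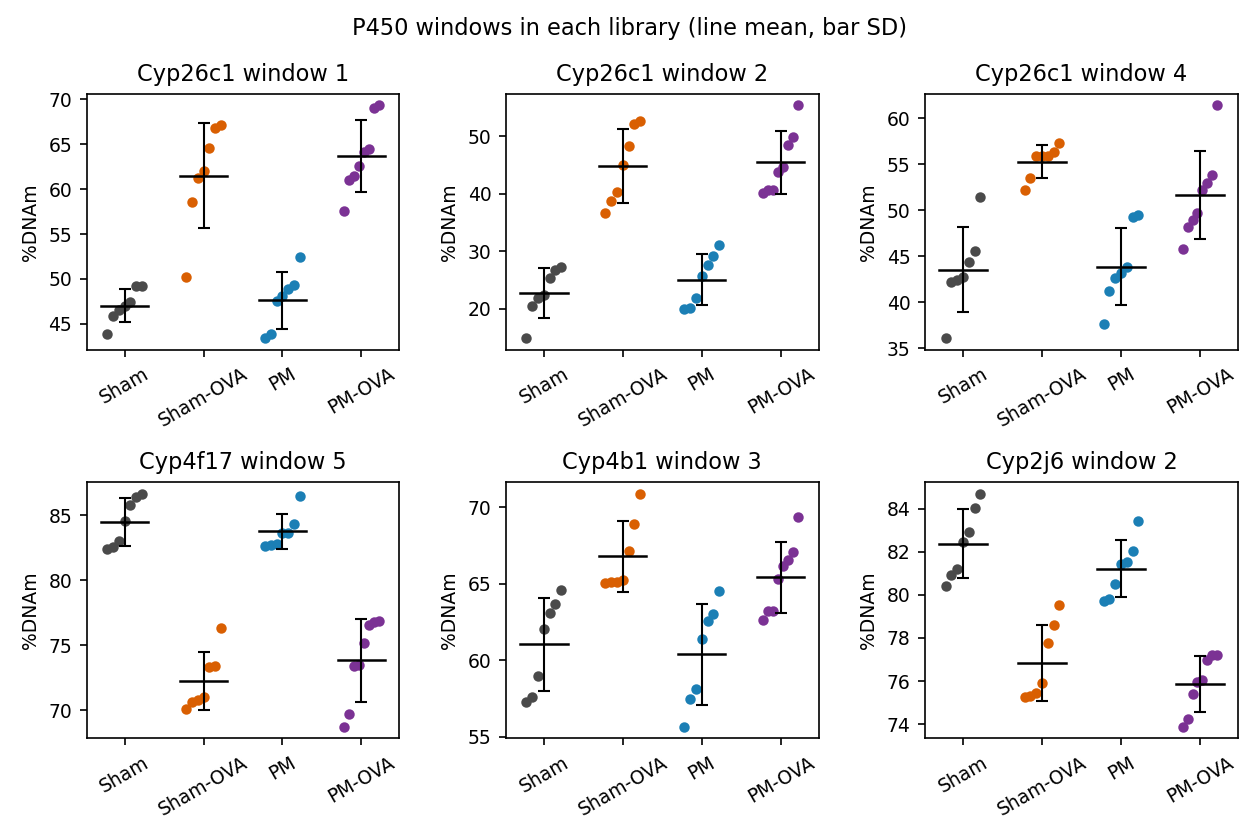
The %DNAm (y axis, a range of its own in each panel) of 6 P450 windows in every library of the 4 groups (x axis), where points are libraries, the line is the mean and the bar is the SD. In Cyp26c1 window 2 and Cyp4f17 window 5 no OVA library lies within the range of the unchallenged libraries.

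Cyp4f17 belongs to the fatty acid hydroxylases of subfamily 4f (ENSMUSG00000091586, chromosome 17, plus strand). Its window 5 (chr17:32523054-32525722, 2669 bp, 468 of them exonic, over exons 7 to 9) lies 17004 to 19672 bp after the start. It ranged from 82.4 to 86.6 %DNAm in Sham (median 84.5) and from 70.1 to 76.4 in Sham-OVA (median 71.0), and from 82.6 to 86.5 in PM (median 83.6) and 68.7 to 76.9 in PM-OVA (median 74.4). The challenged libraries all lay below the unchallenged ones. The mean fell by 12.2 points in Sham offspring (from 84.5% ± 1.85 to 72.2% ± 2.24, log2 ratio −1.03, SE 0.0952, adjusted p 1.07e-08). In PM offspring it fell by 9.91 points, just short of the minimum of 10 (from 83.7% ± 1.36 to 73.8% ± 3.17, log2 ratio −0.83, SE 0.0921, adjusted p 8.19e-08), and the interaction had an adjusted p of 0.755.

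Family 4 as a whole was near the background for OVA in Sham and held a smaller share of higher windows than the background for OVA in PM. Over its 27 genes, 12 of 96 windows were higher and 22 lower after OVA in Sham offspring, and 5 were higher and 37 lower in PM offspring. These are 12.5% and 22.9%, against 13.3% and 22.3% of all tested windows, and 5.21% and 38.5%, against 9.26% and 34.8%. In subfamily 4a, whose enzymes hydroxylate fatty acids in liver and kidney, 0 of 31 windows were higher in either comparison while 12 (38.7%) and 23 (74.2%) were lower, with medians of −1.93 and −3.06 percentage points. Subfamily 4f had 10 higher and 6 lower of 48 windows in Sham offspring, and 4 and 7 in PM offspring (20.8% and 12.5%, and 8.33% and 14.6%). Cyp4f39, an enzyme for very long fatty acids of the skin lipid barrier, had 5 of 9 windows higher in Sham offspring and 3 in PM offspring, with 0 lower. Its window 3 (chosen after its values were seen) rose from 67.5% ± 1.08 (SD) to 72.8% (adjusted p 9.49e-06) and from 67.9% ± 1.21 to 72.9% ± 1.75 (adjusted p 8.80e-06).

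Cyp4b1, a lung P450 of the club cells that activates several inhaled toxicants, held the largest rise of family 4, at the window of its start. Here and for the families that follow, the largest rise or fall was taken by the mean of both OVA differences, among windows past the threshold in both comparisons. This window (chr4:115643092-115649815) ranged from 57.3 to 64.6 %DNAm in Sham (median 62.1), 65.1 to 70.9 in Sham-OVA (median 65.3), 55.7 to 64.5 in PM (median 61.4) and 62.6 to 69.4 in PM-OVA (median 65.8). Sham-OVA lay just above Sham, and PM-OVA overlapped PM. The rise was 5.75 points (log2 ratio 0.35, SE 0.0870, adjusted p 0.00232) and 5.04 points (log2 ratio 0.30, SE 0.0842, adjusted p 0.00445).

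Family 2, the largest, had 252 tested windows of 68 genes, and 7 were higher and 66 lower after OVA in Sham offspring, and 3 higher and 132 lower in PM offspring. These are 2.78% and 26.2%, against 13.3% and 22.3% of all tested windows, and 1.19% and 52.4%, against 9.26% and 34.8%. Its medians were −1.36 and −2.16 percentage points, and 0 windows were DMRs. Subfamily 2j, whose enzymes make epoxides of arachidonic acid, had 22 (43.1%) and 40 (78.4%) of 51 windows lower and 0 higher. Subfamily 2d had 14 (45.2%) and 25 (80.6%) of 31 lower and 1 higher in each (3.23%). Subfamily 2c had 24 (24.7%, against 22.3% of all tested windows) and 48 (49.5%, against 34.8%) of 97 lower and 0 higher. Subfamily 2b had 1 (3.85%) and 9 (34.6%) of 26 lower, and 1 (3.85%) and 0 higher.

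Cyp2j6 held the largest mean fall of family 2 in window 2 (chr4:96522422-96538559, 16138 bp). It ranged from 80.4 to 84.7 %DNAm in Sham and from 75.2 to 79.6 in Sham-OVA, and from 79.7 to 83.4 in PM and 73.9 to 77.2 in PM-OVA, with no overlap between challenged and unchallenged libraries. The fall was 5.55 points (log2 ratio −0.48, SE 0.0689, adjusted p 5.59e-06) and 5.36 points (log2 ratio −0.44, SE 0.0667, adjusted p 6.37e-06). All 4 tested windows of Cyp2j6 were lower in both comparisons. Cyp2d22 held the largest mean rise, ahead of Cyp2s1 in Sham but not in PM offspring, in the window of its start (chr15:82377519-82380267), from 36.8% ± 2.56 (SD) to 43.5% ± 4.29 (adjusted p 0.00150) and from 38.8% ± 2.16 to 43.4% ± 2.88 (adjusted p 0.0159), with overlapping groups. Cyp2s1, a P450 of airway epithelium, rose in window 1 over its 3′ end (chosen after its values were seen), from 59.2% ± 2.65 to 64.8% ± 1.63 (adjusted p 0.000212) and from 58.9% ± 2.49 to 64.3% ± 1.16 (adjusted p 0.00021).

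In family 3A, the drug-metabolising enzymes typical of liver and gut, 0 of 33 windows were higher in either comparison, against 13.3% and 9.26% of all tested windows. In the same family 3 (9.09%, against 22.3%) and 11 (33.3%, against 34.8%) were lower. Cyp3a13 window 3, holding the start, had the largest mean fall of the windows past the threshold in both comparisons, from 72.2% ± 1.21 (SD) to 68.6% ± 1.61 (adjusted p 0.000333) and from 71.6% ± 1.08 to 69.4% ± 1.11 (adjusted p 0.0159, 0.154 with centred libraries). Many genes of families 2, 3A and 4a lie in clusters of close copies. In 62 of the 511 windows, over 10% of 150-base stretches occurred in another P450 window once unmethylated C was read as T, and reads there may have been placed on the wrong copy. This share was 0.0% in the Cyp26c1 DMR windows, Cyp4f17 window 5, Cyp4b1 window 3 and Cyp2j6 window 2.

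Genes of steroid and bile acid metabolism had 6 of 84 windows higher and 22 lower after OVA in Sham offspring, and 3 higher and 39 lower in PM offspring. These are 7.14% and 26.2%, against 13.3% and 22.3% of all tested windows, and 3.57% and 46.4%, against 9.26% and 34.8%. Cyp46a1, the brain cholesterol 24-hydroxylase, held the largest mean fall, in window 4 (chr12:108343082-108348174). It ranged from 80.4 to 82.5 %DNAm in Sham and 75.6 to 79.0 in Sham-OVA, and from 80.0 to 83.3 in PM and 73.8 to 76.8 in PM-OVA, with no overlap. The fall was 4.26 points (log2 ratio −0.36, SE 0.0491, adjusted p 2.34e-06) and 6.30 points (log2 ratio −0.53, SE 0.0475, adjusted p 3.84e-09). Cyp39a1, an oxysterol hydroxylase of bile acid synthesis, was lower in 9 and 13 of its 15 windows. Cyp7b1, the oxysterol 7-alpha-hydroxylase, held the largest mean rise in the intronic window 10, from 69.4% ± 2.99 to 74.6% ± 2.64 (adjusted p 0.00541) and from 71.6% ± 3.02 to 75.2% ± 2.41 (adjusted p 0.0307, 0.0960 without PM-OVA replicates 7 and 8), with overlapping groups.

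Of the 12 windows of vitamin D genes, 5 were higher in Sham offspring (41.7%, against 13.3% of all tested windows) and 3 in PM offspring (25%, against 9.26%), 0 were lower in either, and the rest did not pass. Of the higher windows 4 and 2 were of Cyp24a1. Cyp24a1 inactivates vitamin D, and its window 6 (chr2:170494929-170496290), next to the start window, rose from 6.23% ± 0.852 (SD) to 8.53% ± 0.779 (log2 ratio 0.44, SE 0.0858, adjusted p 0.000233) and from 6.77% ± 0.724 to 8.70% ± 1.07 (log2 ratio 0.35, SE 0.0831, adjusted p 0.00136). Its start window averaged 2.36% in Sham, 3.76% in Sham-OVA (adjusted p 0.00467), 2.59% in PM and 3.53% in PM-OVA (adjusted p 0.0397, 0.0813 on the percent scale and 0.130 without PM-OVA replicates 7 and 8). The start window of Cyp27b1, which activates vitamin D, went from 16.8% to 17.7% in Sham offspring (adjusted p 0.306) and rose from 16.7% to 19.7% in PM offspring (adjusted p 0.000820), with an interaction adjusted p of 0.671. That of Cyp2r1, the vitamin D 25-hydroxylase, averaged 5.38% in Sham, 6.15% in Sham-OVA (adjusted p 0.0453, 0.0683 without Sham replicate 1 and 0.109 on the percent scale), 5.62% in PM and 5.69% in PM-OVA (adjusted p 0.796, 0.00684 with centred libraries).

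**Figure D3:**
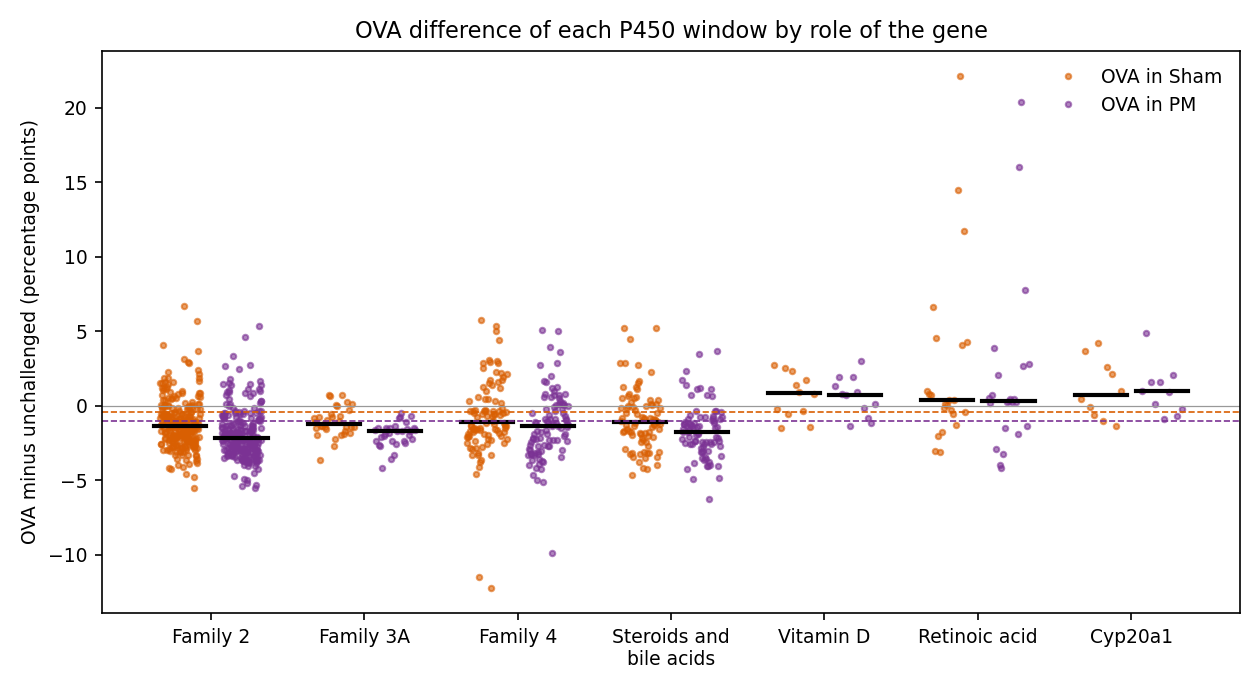
Difference of group means, OVA minus unchallenged, in percentage points (y axis) for each of the 510 tested P450 windows by role of the gene (x axis), with OVA in Sham in orange and OVA in PM in purple, black lines for group medians and dashed lines for the medians of all tested windows (−0.414 and −1.03). The highest points, in the retinoic acid group, are windows of Cyp26c1, and family 2 medians lie at −1.36 and −2.16.

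The medians of the differences were lower in longer windows, as they were in the whole table. A long window is one poor in CpG, and the P450 windows were long, with a median of 6909 bp for those tested against 4772 bp for all. Among P450 windows of 10000 bp or more, the medians were −1.69 percentage points for OVA in Sham and −2.45 for OVA in PM (n = 145 windows), against −1.66 and −2.32 in all tested windows of that length. From 5000 to 10000 bp they were −1.13 and −1.91 (n = 205), against −0.920 and −1.63. From 2000 to 5000 bp they were −0.197 and −0.747 (n = 128), against −0.0248 and −0.619. Under 2000 bp they were 0.0378 and 0.255 (n = 32), against 0.165 and 0.0648, and this class holds Cyp26c1 windows 1 and 2. Higher calls made up 28.1% of P450 windows under 2000 bp in each comparison, against 20.1% and 16.7% of all windows of that length. From 2000 to 5000 bp they made up 21.1% (against 18.4%) and 9.38% (against 12.9%), from 5000 to 10000 bp 3.41% (against 8.35%) and 0.976% (against 5.02%), and from 10000 bp 0% (against 1.88% and 1.00%). Lower calls made up 0% (against 5.85%) and 9.38% (against 7.73%) of P450 windows under 2000 bp, and 17.2% (against 18.6%) and 28.9% (against 28.3%) from 2000 to 5000 bp. They made up 22% (against 27.9%) and 45.4% (against 44.4%) from 5000 to 10000 bp, and 34.5% (against 35.4%) and 62.8% (against 56.6%) from 10000 bp.

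**Figure D4:**
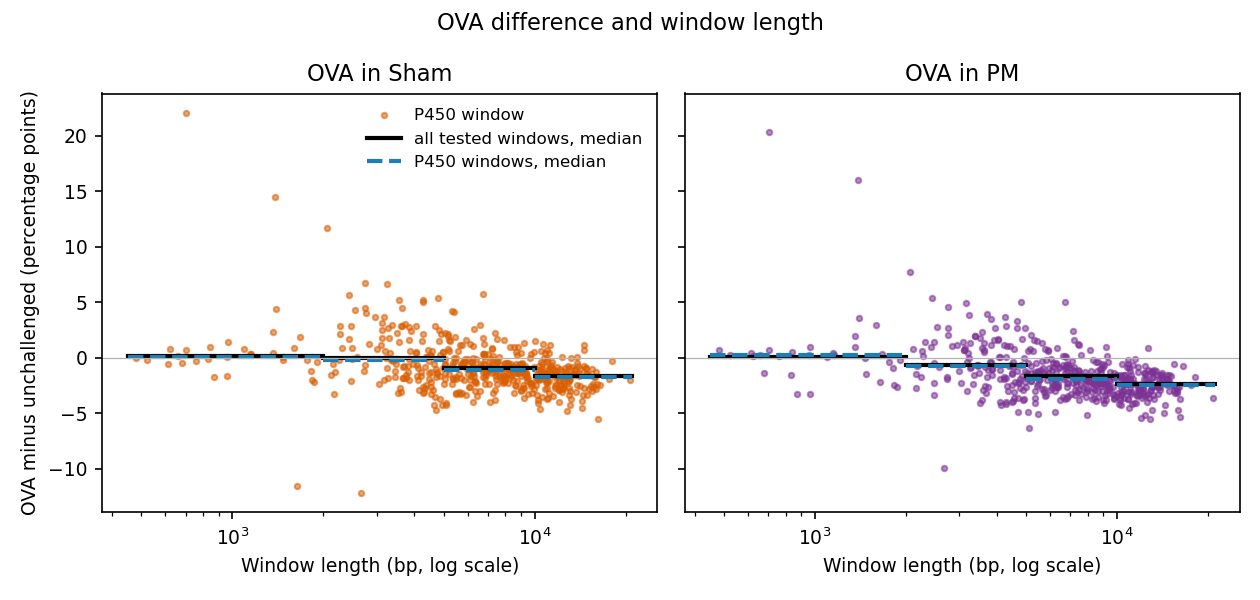
OVA minus unchallenged in percentage points (y axis) against window length in bp (x axis, log scale) for P450 windows, in Sham offspring (left) and PM offspring (right), with black lines for the medians of all tested windows and dashed blue lines for those of P450 windows in 4 length classes. From 10000 bp the P450 medians are −1.69 and −2.45 and those of all windows −1.66 and −2.32.

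Most windows that hold a P450 start site were methylated in this tissue, but they are 480 to 20681 bp long (median 8823 bp), so their means do not measure the start site alone. Of 116 windows holding the start of their gene, 102 averaged over 50 %DNAm in Sham and 7 under 10. After OVA, 8 were higher and 32 lower in Sham offspring, and 7 higher and 49 lower in PM offspring. These are 6.90% and 27.6%, against 13.3% and 22.3% of all tested windows, and 6.03% and 42.2%, against 9.26% and 34.8%. Among P450 genes known from the lung, the start window of Cyp2f2, the club cell enzyme, averaged 72.9% ± 1.38 (SD) in Sham, 72.8% ± 1.96 in Sham-OVA, 71.7% ± 2.51 in PM and 72.4% ± 1.70 in PM-OVA (adjusted p 0.959 and 0.657). Those of Cyp2j6 and Cyp2j9 fell, the former from 50.4% to 47.7% (adjusted p 0.00551) and from 50.8% to 47.5% (adjusted p 0.000646), and the latter from 62.1% to 59.2% (adjusted p 0.00236) and from 62.1% to 58.5% (adjusted p 0.000109). That of Cyp2e1, which oxidises ethanol, averaged 75.6% and 74.2% in Sham offspring (adjusted p 0.228) and fell from 75.7% to 73.4% in PM offspring (adjusted p 0.0316, 0.197 with centred libraries). The start windows of Cyp2a5, Cyp2b10, Cyp2s1 and Cyp4f18 stood between 62.3% and 74.7% in all groups, with adjusted p between 0.144 and 0.741 for both OVA comparisons.

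In the steroid group, the start windows of Cyp11b1, Cyp11b2, Cyp19a1, Cyp21a1, Cyp7a1 and Cyp8b1, which are enzymes of adrenal, gonad or liver, stood between 74.1% and 82.1%. Of their 12 OVA comparisons 1 passed the threshold, Cyp11b2 in Sham offspring (81.1% to 79.4%, adjusted p 0.0438), and this call was lost with centred libraries (0.0752) and with trend and robust fitting (0.0534), while Cyp7a1 in Sham offspring passed with centred libraries (0.0419). That of Cyp17a1, of androgen synthesis, rose from 59.4% ± 1.80 (SD) to 62.2% ± 1.85 in Sham offspring (adjusted p 0.0326) and averaged 59.5% and 60.8% in PM offspring (adjusted p 0.283, 0.0469 with centred libraries). The start windows of Cyp27a1 (31.0 to 32.3% over the groups), Cyp7b1 (11.9 to 12.4%) and Cyp46a1 (1.01 to 1.93%) were lower, and of these 1 passed, Cyp46a1 in PM offspring (1.19% to 1.93%, adjusted p 0.0227, 0.0741 on the percent scale).

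**Figure D5:**
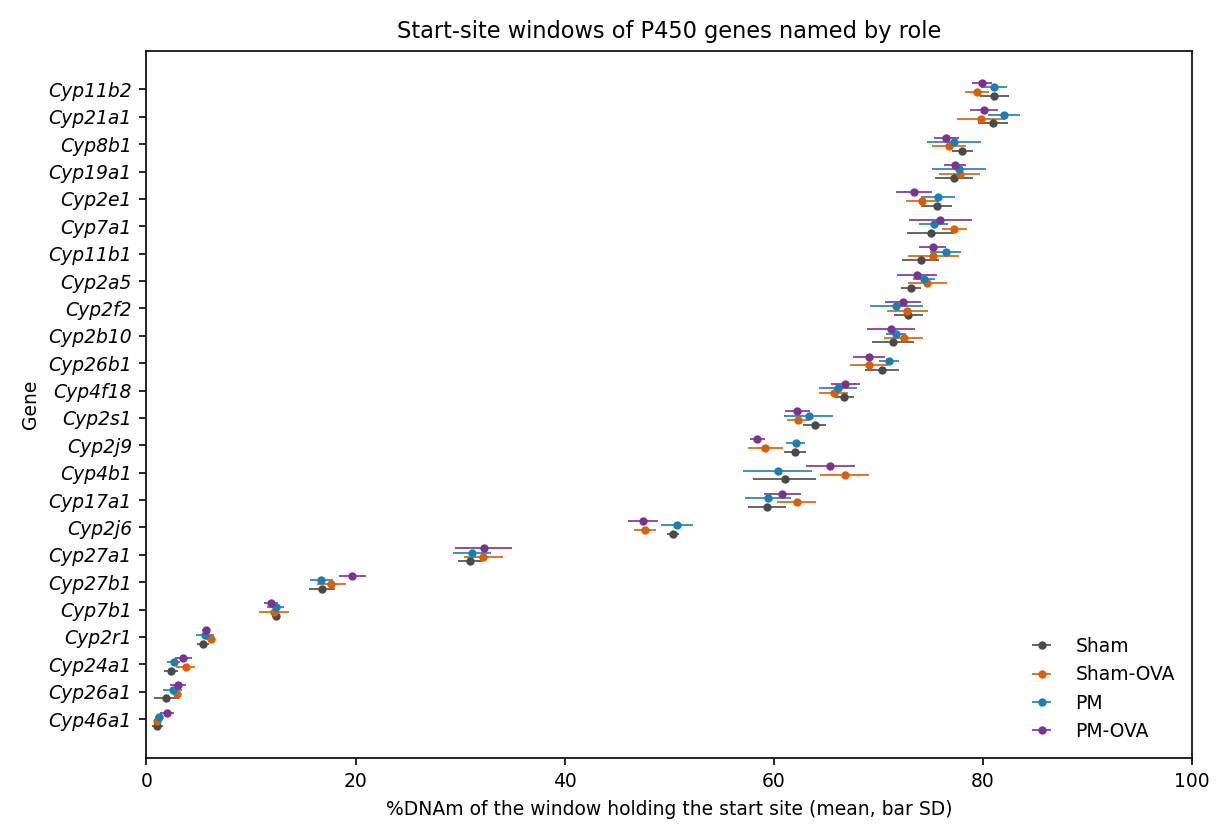
Mean %DNAm (x axis, bars SD) of the window holding the start site of P450 genes of the lung, vitamin D, retinoic acid, and steroid and bile acid lists (y axis) in the 4 groups. The genes run from Cyp46a1 at about 1% to Cyp11b2 at 81.1% in Sham, and OVA moved none of these windows by 10 points.

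Maternal PM2.5 itself was compared as PM against Sham and as PM-OVA against Sham-OVA, and 0 P450 windows passed the adjusted threshold in limma, against 0% of all windows. At an unadjusted p under 0.05 there were 28 (5.49%, against 5.79% of all tested windows) and 40 (7.84%, against 5.96%). For the interaction of maternal exposure and OVA there were 0 past the adjusted threshold and 38 at an unadjusted p under 0.05 (7.45%, against 7.40%). The smallest p for PM without OVA was in window 11 of Cyp26b1, at 1.02% ± 0.810 (SD) in Sham and 0.186% ± 0.244 in PM (adjusted p 0.734). The smallest for PM with OVA and for the interaction were both in window 2 of Cyp2b10 (chr7:25897788-25903182), a P450 induced by phenobarbital. This window ranged from 61.7 to 64.9 %DNAm in Sham (median 62.9) and 64.9 to 68.3 in Sham-OVA (median 67.2), and from 62.6 to 66.3 in PM (median 64.7) and 63.4 to 66.2 in PM-OVA (median 63.7). It rose by 4.10 points after OVA in Sham offspring (adjusted p 6.01e-05) and differed by −0.483 points in PM offspring (adjusted p 0.597), but the interaction of −4.58 points did not pass the threshold (adjusted p 0.496).

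The lowest and the most variable P450 windows were described too. The lowest Sham means were in Cyp2u1 window 7 (0.469%), Cyp4f41-ps window 4 (0.523%), which also overlaps Zfp472, and Cyp26b1 window 7 (0.691%). The largest spread within groups was in Cyp4a32 window 2 (chr4:115604553-115606193, intronic, SD 9.08 points). Its values came from 5 libraries of Sham, 5 of Sham-OVA, 7 of PM and 6 of PM-OVA, and averaged 88.2% ± 7.07 and 76.6% ± 12.1 in Sham offspring (adjusted p 0.121) and 85.6% ± 7.89 and 83.4% ± 9.04 in PM offspring (adjusted p 0.718). One window, Cyp4a30-ps window 2, had values in 2 Sham libraries and was not tested.

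Among genes that work with P450 enzymes, 6 electron partners had 14 of 56 windows higher and 8 lower in Sham offspring, and 11 higher and 9 lower in PM offspring. These are 25% and 14.3%, against 13.3% and 22.3% of all tested windows, and 19.6% and 16.1%, against 9.26% and 34.8%. One was a DMR, in Cyb5a (cytochrome b5), at 60.3% ± 2.87 (SD) and 70.4% ± 2.57 in Sham offspring (adjusted p 3.52e-07) and 59.7% ± 1.36 and 69.0% ± 1.92 in PM offspring (adjusted p 5.72e-07). Nuclear receptors that regulate P450 genes (8 genes, 112 windows) had 18 higher and 23 lower, and 9 higher and 39 lower, with 0 DMRs (16.1% and 20.5%, and 8.04% and 34.8%). The smallest p among them was in a window of Rxra, the partner of the retinoic acid and vitamin D receptors (chr2:27677738-27680279), which rose from 12.7% ± 1.69 to 18.6% ± 1.07 and from 12.6% ± 1.75 to 19.7% ± 1.43 in PM offspring (adjusted p 1.17e-07). In the 3 P450 genes whose names have another form (Cyp51, Ptgis and Tbxas1, 65 windows), 6 were higher and 18 lower, and 2 higher and 32 lower (9.23% and 27.7%, and 3.08% and 49.2%). Of these windows 1 was a DMR for OVA in Sham (1.54%) and 0 for OVA in PM. This window, in Tbxas1, thromboxane synthase (chr6:38919135-38921925), went from 72.9% ± 1.26 to 60.2% ± 2.12 in Sham offspring (adjusted p 1.66e-08) and from 71.8% ± 1.98 to 62.3% ± 3.38 in PM offspring (adjusted p 4.21e-07).

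Windows of marker genes moved with OVA as well. In 15 leucocyte genes, 14 of 104 windows were DMRs in each OVA comparison (13.5%, against 0.775% and 0.584% of all tested windows), 13 lower and 1 higher. Without the minimum difference, 22 of these windows were higher (21.2%, against 13.3%) and 41 lower (39.4%, against 22.3%) in Sham offspring, and 14 higher (13.5%, against 9.26%) and 46 lower (44.2%, against 34.8%) in PM offspring. The mean over these windows ranged from 70.5 to 71.6% in Sham, 68.3 to 69.9% in Sham-OVA, 70.9 to 72.1% in PM and 68.0 to 69.1% in PM-OVA, so OVA and unchallenged libraries did not overlap. In 12 epithelial genes, 1 of 61 windows was a DMR, in Krt8 for OVA in Sham, with 17 higher (27.9%) and 4 lower (6.56%) in Sham offspring and 8 higher (13.1%) and 7 lower (11.5%) in PM offspring. The epithelial mean ranged from 53.7 to 55.6%, 54.8 to 56.2%, 54.4 to 55.6% and 54.5 to 55.6%. Methylation does not show whether a marker is expressed, and the part of these lists in the P450 results was not tested.

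Without Sham replicate 1 the counts of P450 DMRs were again 4 and 2, with Cyp26c1 window 2 at 20.8 points in Sham offspring (adjusted p 1.07e-06). Pearson's r between libraries over 506 P450 windows lay between 0.974 and 0.993, and 0 pairs were identical.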

How the data were processed

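Going by the labels and the methods of the study, the authors made enzymatic methyl-seq libraries with a lambda DNA spike-in, trimmed reads with Trim Galore, mapped and called them with DRAGEN against GRCm38 (tools as in the submitters' processing notes), and deposited a percent methylation per window and library from SeqMonk. The study describes deep coverage of each library, but the deposited values carry no read counts per window, so no counting interval is given and precision rests on the number of libraries. 

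Windows with at least 3 values in each group (510 of 511 P450 windows, 259167 in all) were fitted in R 4.3.3 with the moderated test of limma 3.58.1 (values read with data.table, version 1.17.8) on log2((percent + 1)/(101 − percent)), an offset of 1 point, with 4 group means over all 29 libraries, with tests 2-sided and p-values adjusted by Benjamini-Hochberg across every tested window. Differences in points are of group means. Lower and higher windows without the word DMR are those with adjusted p under 0.05. P-values measure the spread between these libraries, since nothing ties libraries to litters. All sequences were read from GRCm38.p6, and exons and the starts held by windows from GENCODE M21, with Python 3.11.15, pysam 0.24.0 and pandas 2.3.3. Promoters and the end of the Cyp26a1 upstream stretch were set by RefSeq starts. All 511 windows lay within their chromosome. Windows carry the gene name they were deposited with, and 51 of them overlapped other genes.

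Named windows were every DMR, the smallest p of contrasts without one, the largest rise and fall of each role, by the mean of both OVA differences, past the threshold in both, start windows of the listed genes, and the lowest and most variable windows. Members, lists, tests and alternatives were chosen with earlier results of these data known. The fit was also checked on simulated data. Of the partner list, 6 of 7 genes were matched. RNA data were not analysed here.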

Additional observations from a re-analysis of the deposited data

Results flagged for a closer look

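Within groups, each of 49 windows was checked for a library far from the others (Dixon's test at the 95% level), which gave 12 in 196 group checks, where chance flags about 1 in 20. Most were low windows. In Cyp26b1 window 7, Sham replicate 7 had 2.64 %DNAm against 0.521 in the nearest library. In Cyp2u1 window 7, Sham replicate 6 had 1.66 against 0.618. In Cyp4f41-ps window 4, Sham replicate 5 had 1.75 against 0.483. In Cyp26a1 window 1, Sham-OVA replicate 1 had 2.19 against 2.75 and PM replicate 3 had 4.36 against 2.63. In Cyp26a1 window 2, PM replicate 6 had 1.64 against 1.05. In Cyp2r1 window 2, PM replicate 5 had 7.32 against 5.93. At higher levels, Sham replicate 6 had 67.6 against 70.3 in Cyp26c1 window 3, Sham replicate 1 had 64.9 against 66.5 and PM replicate 4 had 69.9 against 66.5 in Cyp4f18 window 2, and Sham-OVA replicate 3 had 69.7 against 72.7 and PM-OVA replicate 4 had 69.3 against 72.4 in Cyp4f39 window 3. No library was far from its group in Cyp26c1 windows 1, 2 and 4 or Cyp4f17 window 5.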

How the results depend on the processing

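The 4 and 2 P450 DMRs for OVA in Sham and OVA in PM were counted alike with an offset of 5 points, on the percent scale, with a value in all 29 libraries, with centred libraries, with trend and robust fitting, without Sham replicate 1, and without PM-OVA replicates 7 and 8. A minimum difference of 5 points gave 13 (2.55%, against 5.96% of all tested windows) and 14 (2.75%, against 5.89%), and none gave 160 and 247. At an adjusted p under 1e-06 there were 2 and 2 of 510 P450 windows, against 1031 and 919 of all 259167 tested windows. With no minimum difference at that threshold, 1 higher and 1 lower window passed for OVA in Sham (822 and 2121 of all tested windows). For OVA in PM, 2 higher and 4 lower passed (449 and 5044 of all tested windows). Centring the libraries gave 55 higher and 116 lower for OVA in PM, in place of 23 and 224, which follows from subtracting each library's median. At the usual threshold, the other fits gave counts for OVA in PM that were 18 to 24 higher and 200 to 233 lower. The comparisons of PM with Sham, with or without OVA, and the interaction gave 0 calls under each of these alternatives.

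Among the differences of named windows, centring lost 4 calls and turned the sign of 11 that were not past the threshold before or after. It gained 10, namely Cyp7a1 window 2 for OVA in Sham (adjusted p 0.0419) and, for OVA in PM, Cyp17a1 window 2 (0.0469), Cyp26c1 window 3 (0.0145), Cyp2r1 window 2 (0.00684) and 6 low windows of Cyp26a1, Cyp26b1, Cyp2u1 and Cyp4f41-ps. Centring takes the same number of points off every window of a library, which weighs heavily in windows near 0 %DNAm, and values under 0 were set to 0. The points taken off ran from −0.102 to 1.28 in PM libraries and from −0.973 to 0.00172 in PM-OVA libraries. For OVA in Sham the turned differences became 0.294 points in Cyp2f2 window 1, 0.157 in Cyp2u1 window 7, 0.361 in Cyp46a1 window 1, 0.219 in Cyp4f41-ps window 4 and 0.243 in Cyp7b1 window 19. For OVA in PM they became 0.622 in Cyp19a1 window 20, 0.329 in Cyp2a5 window 1, 0.499 in Cyp2b10 window 1, 0.497 in Cyp2b10 window 2, 0.517 in Cyp7b1 window 19 and 0.223 in Cyp8b1 window 1. Without Sham replicate 1, Cyp46a1 window 1 became 0.133 for OVA in Sham (−0.0346 with that library), Cyp2r1 window 2 went to an adjusted p of 0.0683 and Cyp26b1 window 11 to 0.0456. Without PM-OVA replicates 7 and 8, Cyp24a1 window 7, Cyp26c1 window 6 and Cyp7b1 window 10 lost the threshold for OVA in PM (adjusted p 0.130, 0.0593 and 0.0960). On the percent scale 6 calls were lost, namely Cyp26a1 windows 1 and 3 and Cyp2r1 window 2 for OVA in Sham (adjusted p 0.120, 0.0859 and 0.109), and Cyp24a1 window 7, Cyp26a1 window 3 and Cyp46a1 window 1 for OVA in PM (0.0813, 0.0578 and 0.0741), and Cyp26b1 window 13 was gained for OVA in PM (0.0471). Trend and robust fitting lost Cyp11b2 window 2 and Cyp2r1 window 2 for OVA in Sham (0.0534 and 0.0972), and an offset of 5 lost the latter (0.0608). Causes other than the subtraction made by centring were not tested. Counting error within a window could not be computed from these values.

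Equal replicate numbers, taken from the sample titles, did not pair the libraries, since the deviations of 42 same-numbered pairs correlated with a median r of 0.0125 (−0.0405 to 0.0987), 0 of them over 0.1. With the replicate block the DMR counts were 4 and 2, with 44 higher and 116 lower windows for OVA in Sham and 24 and 204 for OVA in PM, and Cyp2e1 window 1 lost the threshold (adjusted p 0.0614). In 10 of 29 libraries the library's own name carries another number, and by those numbers 36 pairs had a median r of 0.0141 (−0.0295 to 0.0987), again 0 over 0.1. A replicate block on the library names, added after seeing the data, gave 5 and 2 DMRs, 43 higher and 121 lower windows for OVA in Sham and 19 and 207 for OVA in PM, with 6 calls of named windows lost and 2 gained. Lost were Cyp11b2 window 2 for OVA in Sham (adjusted p 0.0958) and, for OVA in PM, Cyp24a1 window 7 (0.120), Cyp26a1 window 4 (0.0569), Cyp26c1 window 6 (0.0597), Cyp2e1 window 1 (0.0554) and Cyp7b1 window 10 (0.0684). The added DMR and 1 of the gained calls were Cyp4a32 window 2 (adjusted p 0.0237), and the other gained call was Cyp7a1 window 2 (0.0479), both for OVA in Sham.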

Other observations

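Cyp20a1, an orphan P450 in no role group above, had 10 windows, of which 3 were higher and 1 lower for OVA in Sham (30% and 10%, against 13.3% and 22.3% of all tested windows) and 3 higher and 0 lower for OVA in PM (30% and 0%, against 9.26% and 34.8%), with medians of 0.693 and 0.949 percentage points. The 65 tested windows of pseudogenes had 1 higher (1.54%) and 20 lower (30.8%) for OVA in Sham, and 0 higher and 36 lower (55.4%) for OVA in PM, with medians of −1.63 and −2.35 points and a median Sham level of 76.9%. Among the lung P450 list (11 genes, 68 windows), 8 windows were higher and 14 lower for OVA in Sham, and 4 higher and 25 lower for OVA in PM. These are 11.8% and 20.6%, against 13.3% and 22.3% of all tested windows, and 5.88% and 36.8%, against 9.26% and 34.8%.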
